A study of Mus musculus with 12 samples.

Results

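The genes described here are 39 genes of oxidative defence: the transcription factor NRF2 with its partners and inhibitors, the enzymes that make and recycle glutathione, the thioredoxin and peroxide-removing systems, glutathione transferases, and Aldh3a1 and Xdh. They were taken from a fixed list of symbols, with the probe set of highest mean for each gene among those carrying a single symbol. Of the 39 genes, 38 were measured among 19938 genes, and Prdx6 was not analysed here. Expression was measured on 12 mouse gene arrays, 4 labelled as biological replicates in each of 3 groups, in CD4+ T cells answering to foreign tissue. Splenocytes of C57Bl/6 mice stained with the division dye CFSE were injected into B6D2F1 hosts, which sets off a graft-versus-host response, and the CD4+ cells that had divided at least 2 times were sorted 48 hr later from spleen and lymph node. Mice were 10 to 12 weeks old, and every group, vehicle included, carried the transferred cells.

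The TCDD hosts received 15 µg/kg of TCDD, a persistent chlorinated dioxin, intraperitoneally on day 0. The Cl-BBQ hosts received 2 mg/kg of Cl-BBQ intraperitoneally on days 0 and 1. Vehicle was given on days 0 and 1. Both compounds bind AhR, the aryl hydrocarbon receptor, which enters the nucleus and switches on detoxifying enzymes. The hosts were dosed, not the sorted cells, and dose and schedule differed between the compounds. RNA was measured in bulk, so a change in the share of cells of a type and a change in RNA per cell cannot be told apart.

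NRF2, encoded by Nfe2l2, is normally bound by KEAP1 and sent for degradation. Oxidants and electrophiles that modify KEAP1 let NRF2 accumulate, pair with small MAF proteins and bind antioxidant response elements, while BACH1 competes for the same elements. Many NRF2 targets use reduced glutathione or thioredoxin to repair oxidised protein and to remove peroxides. AhR and NRF2 are known to share targets, of which Nqo1 is the textbook example, and T cells depend on glutathione when they divide. NRF2 activity itself is set largely by protein stability, which an RNA measurement does not show.

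The deposited values were log2 intensities with array medians between 7.11 and 7.24, and across genes any 2 arrays had a correlation of 0.993 to 0.998. The mean log2 value over 7 measured CD4+ T cell markers was 12.53 to 12.65 in TCDD arrays, 12.49 to 12.68 in Cl-BBQ arrays and 12.54 to 12.64 in vehicle arrays. The mean over 8 B and plasma cell markers was 6.49 to 6.59 in TCDD arrays, 6.52 to 6.64 in Cl-BBQ arrays and 6.60 to 6.86 in vehicle arrays. The TCDD arrays thus lay below the vehicle arrays, but barely: the highest TCDD mean was 6.592 and the lowest vehicle mean 6.595. The mean over 18 myeloid markers was 6.26 to 6.35 in TCDD arrays, 6.32 to 6.37 in Cl-BBQ arrays and 6.30 to 6.35 in vehicle arrays. Log2 intensities hold no true 0, so no marker could be placed at 0. The third Cl-BBQ array stood apart in the AhR target Cyp1b1, at 5.93 (nearest other Cl-BBQ array 7.89). It was also the lowest Cl-BBQ array in Nqo1, Ahrr and Tiparp, by smaller gaps. The arrays numbered 1 in the TCDD and Cl-BBQ groups deviated together, with a correlation of 0.606 across genes. Values without these arrays are given beside the Gstp3, Xdh, Nqo1 and Cyp1b1 results they bear on.

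Promoter sequence was examined because the list unites genes by a shared regulator. RefSeq (GRCm38.p6) gave a window of 250 bases before the start for 30 of the 38 measured genes. The antioxidant response element core TGACNNNGC stood in 9 of these 30 genes (30.0%), against 11.5% of the 27025 genes with a window. The related letters TGACTCA stood in 6 (20.0%), against 5.2% of genes, and the AhR element core GCGTG stood in 18 (60.0%), against 30.9%. The 27025 genes include genes not measured here, whereas the 30 were all measured, so these shares come from unlike sets. The list was chosen around NRF2, so its share of the antioxidant element is no independent test. Both strands were searched, and TGACTCA followed by GC counts for both of the first motifs. These matches describe letters in a window and not binding, and no match says only that the letters are not in that window. The windows below belong to Gstp3, the only listed gene that passed the test of TCDD against vehicle, and to its relative Gstp1. The others belong to the shared AhR and NRF2 target Nqo1 and to the NRF2 target Srxn1. Srxn1 had TGACTCA and GCGTG in its window and no called difference. Each window is written 5′ to 3′ on the strand of the gene, with motif matches in capitals.
Gstp3: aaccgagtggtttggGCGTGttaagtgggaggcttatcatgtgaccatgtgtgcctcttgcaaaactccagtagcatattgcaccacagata
Gstp1: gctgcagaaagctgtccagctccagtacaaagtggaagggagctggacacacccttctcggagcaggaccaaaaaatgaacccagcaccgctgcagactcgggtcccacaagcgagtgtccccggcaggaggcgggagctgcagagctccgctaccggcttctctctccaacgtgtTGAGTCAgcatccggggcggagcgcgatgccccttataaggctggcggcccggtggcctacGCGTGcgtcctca
Nqo1: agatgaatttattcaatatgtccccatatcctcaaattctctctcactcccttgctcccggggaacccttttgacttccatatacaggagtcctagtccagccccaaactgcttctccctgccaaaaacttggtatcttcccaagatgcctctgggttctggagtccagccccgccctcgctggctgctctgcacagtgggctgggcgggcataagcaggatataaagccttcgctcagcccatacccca
Srxn1: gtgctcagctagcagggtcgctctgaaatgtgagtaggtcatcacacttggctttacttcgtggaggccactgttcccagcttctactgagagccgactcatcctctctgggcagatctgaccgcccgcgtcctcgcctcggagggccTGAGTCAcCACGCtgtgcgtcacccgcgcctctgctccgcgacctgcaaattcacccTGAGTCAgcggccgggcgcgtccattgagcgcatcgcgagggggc

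The Gstp1 window spans chr19:4037913-4038162 on the minus strand, with TGACTCA, read as TGAGTCA, starting 74 bases before the start and GCGTG 13 bases before it. The Gstp3 sequence spans chr19:4059606-4059697 on the minus strand. It is the 92 bases of its window that lie outside the limits RefSeq gives the gene, with GCGTG 235 bases before the start of the transcript used for the window. The Srxn1 window spans chr2:152105274-152105523 on the plus strand, with TGAGTCA 102 and 45 bases before the start. CACGC, the reverse complement of GCGTG, lies 94 bases before it. The Nqo1 window spans chr8:107403206-107403455 on the minus strand and held none of the 3 motifs. Gstp1, Gstp2 and Gstp3 are neighbours on chromosome 19, at 4035411 to 4037912, 4040288 to 4042221 and 4057470 to 4059605.

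The first comparison asked how the listed genes differed between T cells of TCDD-treated and vehicle-treated hosts. One of 38 changed: Gstp3, a pi-class glutathione transferase, fell 1.90-fold in the TCDD arrays. No listed gene was called higher, and the regulators, the glutathione synthesis enzymes and the thioredoxin system held no called gene. A gene was called at an adjusted p under 0.05 in limma with Benjamini-Hochberg adjustment over all 19938 genes. The 1 call made 2.63% of the listed genes, against 1.24% of all genes (0.873% higher and 0.366% lower). The list was chosen with earlier results of these data known, so its shares, here and below, are no independent test. An unadjusted p under 0.05 was reached by 8 of the 38 genes (21.1%), 5 with a positive and 3 with a negative difference, against 8.69% of all genes, 4.69% with a positive and 4% with a negative one. The median log2 difference was -0.01 over the listed genes and 0.00 over all genes, with 18 genes above 0 and 20 below. The median size of the difference, sign ignored, was 0.0503 for the listed genes and 0.059 for all genes.

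The intervals bound the difference in array signal of these genes, not in RNA itself. They include the 7 listed genes with dim values, whose differences are the least certain, here and in the comparisons below. For 36 of 38 genes (94.7%) the 95% confidence interval of TCDD against vehicle lay within a 1.5-fold change in either direction, the exceptions being Gstp3 and Xdh. Over all genes the same held for 97.8%. A change of 2-fold lay within the interval of Gstp3 and of no other listed gene.

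**Figure D1:**
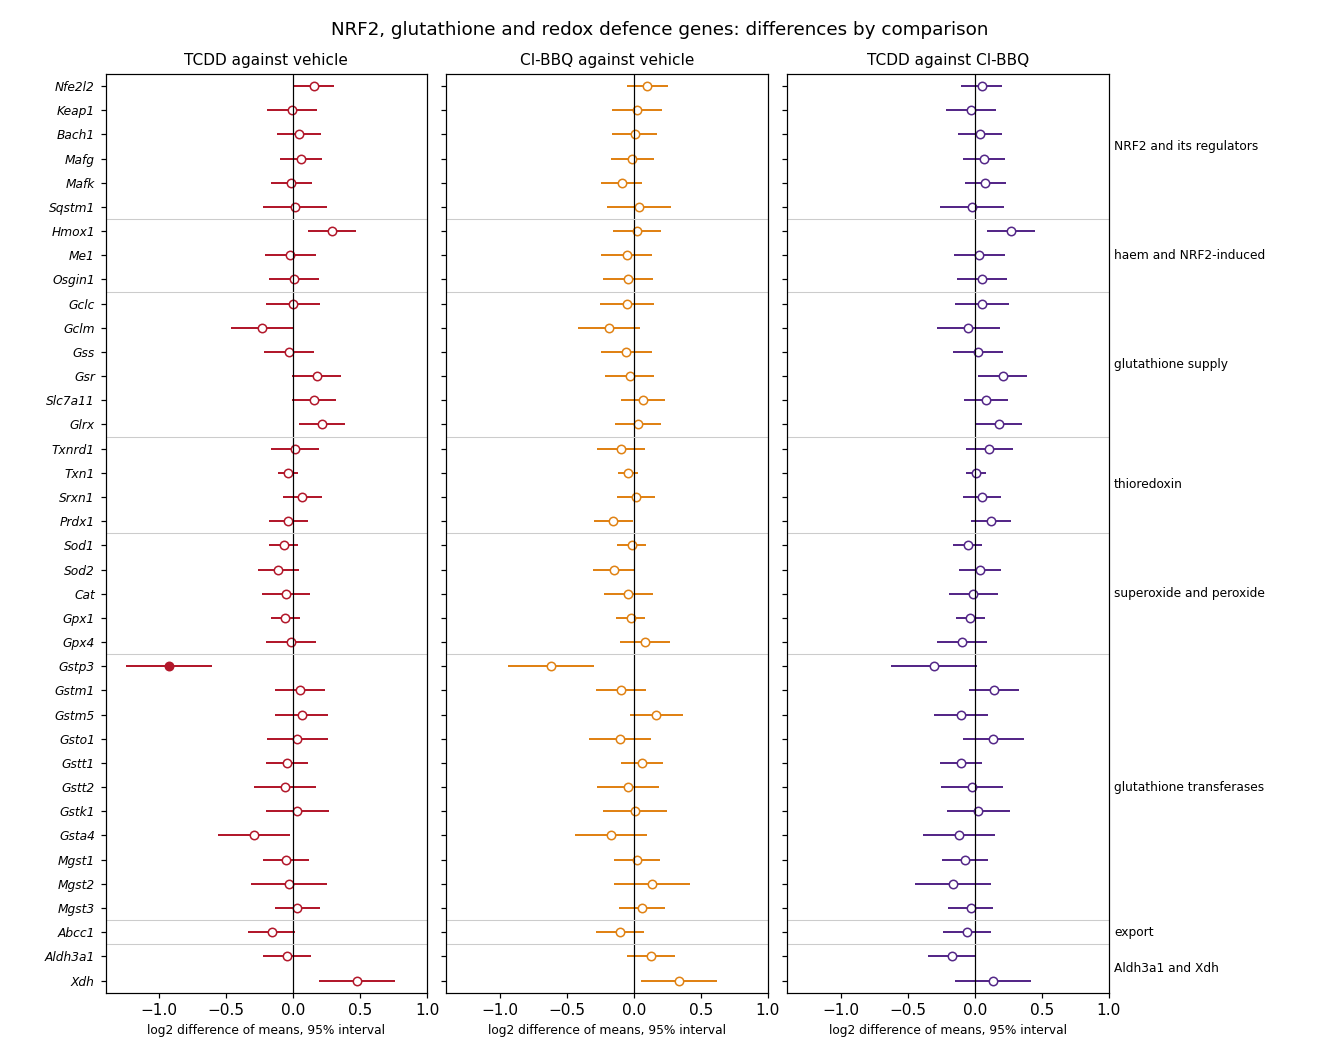
Log2 difference of each of the 38 measured genes (rows) in the comparisons of each treatment with vehicle and of TCDD with Cl-BBQ, with 95% confidence intervals from the limma fit; filled points have an adjusted p under 0.05. Gstp3 in TCDD against vehicle, at -0.92, is the one filled point, and most intervals straddle 0.

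Among the regulators, Nfe2l2, which encodes NRF2, had log2 values of 11.25, 11.33, 11.28 and 11.34 in TCDD arrays, against 11.10, 11.20, 11.07 and 11.22 in vehicle arrays. Every TCDD array was above every vehicle array, by a narrow margin. The difference was 0.15 (95% interval 0.01 to 0.30), a fold of 1.11, and did not pass after adjustment (limma adjusted p = 0.529). Groups that do not overlap in this way, with TCDD higher, were found for 3.15% of all genes, and for 3 of the 38 listed genes.

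Keap1, which encodes the protein that holds NRF2 back, had values of 8.89, 8.97, 8.97 and 9.03 in TCDD arrays and 9.003, 9.03, 8.82 and 9.03 in vehicle arrays. Bach1, which encodes the repressor that competes with NRF2, had values of 7.86, 8.03, 7.85 and 7.91 in TCDD arrays and 7.90, 7.95, 7.81 and 7.83 in vehicle arrays. The groups overlapped in both genes. Their differences were -0.01 for Keap1 (interval -0.19 to 0.17) and 0.04 for Bach1 (interval -0.12 to 0.20). The small MAF partners Mafg and Mafk differed by 0.06 and -0.01. Sqstm1, whose product p62 draws KEAP1 into autophagy, differed by 0.02.

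Hmox1 encodes haem oxygenase 1, which breaks down free haem and is among the best known NRF2 and BACH1 targets. It had values of 7.71, 7.74, 7.83 and 7.70 in TCDD arrays, 7.35, 7.61, 7.52 and 7.40 in Cl-BBQ arrays, and 7.57, 7.55, 7.26 and 7.41 in vehicle arrays. All 4 TCDD arrays were higher than all 8 others. Over all genes, 3.15% were higher without overlap in TCDD against vehicle and 1.24% in TCDD against Cl-BBQ. The share of genes with both was not counted. The difference between TCDD and vehicle was 0.29 (interval 0.12 to 0.46), a fold of 1.22, with an unadjusted p of 0.0024 and a limma adjusted p of 0.125. The gene was called in none of 22 alternative settings, in which its adjusted p ran between 0.0703 and 0.358. Osgin1 and Me1, also induced by NRF2 in other settings, differed by 0.01 and -0.02.

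Of 6 genes that supply or recycle glutathione, none was called. Gclc encodes the catalytic subunit of glutamate-cysteine ligase, the first enzyme of glutathione synthesis. Its values were 10.30, 10.45, 10.56 and 10.43 in TCDD arrays and 10.46, 10.34, 10.28 and 10.65 in vehicle arrays, with a difference of 0.00 (interval -0.19 to 0.20). Gclm, the modifier subunit of the same enzyme, had values of 9.49, 9.71, 9.70 and 9.65 in TCDD arrays and 9.93, 9.71, 9.65 and 10.19 in vehicle arrays. The groups overlapped, and 2 vehicle arrays stood above the rest. The Gclm difference of -0.23 (interval -0.46 to -0.01) had an unadjusted p of 0.0434 and a limma adjusted p of 0.543, and without the fourth vehicle array it was -0.13. Gss, which encodes the enzyme of the second step of synthesis, differed by -0.03.

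Glrx encodes glutaredoxin 1, which removes glutathione from oxidised protein thiols. It had values of 11.72, 11.65, 11.84 and 11.72 in TCDD arrays, 11.66, 11.62, 11.65 and 11.26 in Cl-BBQ arrays, and 11.56, 11.55, 11.40 and 11.57 in vehicle arrays. The TCDD arrays did not overlap the vehicle arrays, with a difference of 0.21 (interval 0.05 to 0.38; limma adjusted p = 0.35). Gsr, which encodes the reductase that regenerates reduced glutathione, had values of 9.84, 9.79, 9.95 and 9.85 in TCDD arrays, 9.72, 9.61, 9.81 and 9.47 in Cl-BBQ arrays, and 9.83, 9.55, 9.63 and 9.72 in vehicle arrays. One vehicle array reached the TCDD values, and the difference was 0.18 (limma adjusted p = 0.572). Slc7a11, the cystine transporter that feeds glutathione synthesis, was dim, with values of 5.78, 5.71, 5.62 and 5.76 in TCDD arrays and 5.51, 5.63, 5.56 and 5.56 in vehicle arrays. The groups overlapped slightly, and the difference of 0.15 had a limma adjusted p of 0.588. Slc7a11 was among 7 listed genes whose probe sets fell under a filter on dim values, as did Me1, Gstm5, Gstt1, Mgst1, Mgst3 and Aldh3a1.

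The thioredoxin system showed no called gene among 4 measured. Txnrd1, thioredoxin reductase 1, had values of 9.51, 9.57, 9.56 and 9.49 in TCDD arrays and 9.71, 9.38, 9.43 and 9.57 in vehicle arrays. The TCDD values lay inside the vehicle range, and the difference was 0.01 (interval -0.16 to 0.18). Srxn1, which encodes sulfiredoxin and reactivates overoxidised peroxiredoxins, had values of 7.43, 7.57, 7.50 and 7.54 in TCDD arrays and 7.40, 7.46, 7.54 and 7.37 in vehicle arrays. Its difference was 0.07 (interval -0.07 to 0.21). Its promoter window above holds TGACTCA at 2 places and GCGTG at 1, which describes letters and not binding. Txn1, thioredoxin itself, differed by -0.04 with an interval of -0.10 to 0.03.

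Prdx1, a thioredoxin-dependent peroxidase, had values of 12.30, 12.20, 12.37 and 12.13 in TCDD arrays, 12.22, 12.17, 12.23 and 11.89 in Cl-BBQ arrays, and 12.27, 12.29, 12.28 and 12.28 in vehicle arrays. The vehicle arrays were almost identical, and the TCDD arrays lay on both sides of them, with a difference of -0.04. A second Prdx1 probe set was not called in any comparison either.

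The enzymes that remove superoxide and peroxide, Sod1, Sod2, Cat, Gpx1 and Gpx4, all had a negative difference in TCDD against vehicle, between -0.11 and -0.01, and none was called. Sod2, the mitochondrial superoxide dismutase, was at the low end. It had values of 9.51, 9.64, 9.64 and 9.65 in TCDD arrays, 9.52, 9.64, 9.59 and 9.53 in Cl-BBQ arrays, and 9.79, 9.72, 9.57 and 9.79 in vehicle arrays. The third vehicle array lay among the TCDD values, and the difference of -0.11 had a limma adjusted p of 0.747.

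Glutathione transferases join glutathione to electrophiles, and 1 of the 11 measured changed. Gstp3 had values of 11.13, 11.52, 11.15 and 11.62 in TCDD arrays, 11.09, 11.83, 11.83 and 11.88 in Cl-BBQ arrays, and 12.19, 12.43, 12.24 and 12.26 in vehicle arrays. All 8 arrays of treated hosts were lower than all 4 vehicle arrays. Over all genes, 2.65% were lower without overlap in TCDD against vehicle and 1.58% in Cl-BBQ against vehicle. The share of genes with both was not counted. Gstp3 averaged 11.35 ± 0.25 in TCDD arrays and 12.28 ± 0.10 in vehicle arrays (SD, n = 4 each). The difference was -0.92 (interval -1.24 to -0.61), a 1.90-fold lower level, with a limma adjusted p of 0.00268. It was called in each of 22 alternative settings, between -1.01 and -0.85, with adjusted p between 2.35e-05 and 0.0189. The mean of the B and plasma cell markers was also lower in the TCDD arrays, by the narrow margin given above. Of those 8 markers 5 had a negative and 3 a positive difference, with a median of -0.06. Cd22, at -0.95, and Bank1, at -0.48, passed the test, the adjusted p of Bank1 reaching 0.161 when single arrays were left out. Cd79b, at 0.23, Pax5, at 0.11, and Blk, at 0.06, lay on the other side and were not called. The part of these markers in the Gstp3 result was not tested.

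Gstp1, the pi-class neighbour of Gstp3 and not on the list, had values of 12.41, 12.43, 12.45 and 12.50 in TCDD arrays, 12.38, 12.49, 12.27 and 12.45 in Cl-BBQ arrays, and 12.30, 12.23, 12.20 and 12.37 in vehicle arrays. Its TCDD arrays were all above its vehicle arrays, the opposite order to Gstp3. The difference of 0.17 (interval 0.07 to 0.27) was not called (limma adjusted p = 0.124). The pi-class genes are close relatives, and how far each probe set also binds RNA of the other genes was not tested.

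Gsta4, an alpha-class transferase that clears lipid peroxidation products, had values of 7.46, 7.30, 7.46 and 7.47 in TCDD arrays, 7.15, 7.67, 7.81 and 7.53 in Cl-BBQ arrays, and 7.99, 7.60, 7.52 and 7.74 in vehicle arrays. All TCDD arrays were lower than all vehicle arrays, as in 2.65% of all genes, whereas the Cl-BBQ arrays spread over both. The difference of -0.29 (interval -0.55 to -0.03) had a limma adjusted p of 0.485. The other 9 transferases, of the mu, omega, theta, kappa and microsomal classes, differed by -0.06 for Gstt2 to 0.06 for Gstm5. Abcc1, which exports glutathione conjugates, differed by -0.16 (limma adjusted p = 0.624).

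Xdh encodes xanthine dehydrogenase, which acts in purine breakdown and can also produce oxidants. It had values of 9.40, 9.66, 9.78 and 9.88 in TCDD arrays, 9.22, 9.69, 9.54 and 9.71 in Cl-BBQ arrays, and 9.04, 9.43, 8.99 and 9.35 in vehicle arrays. The lowest TCDD array fell just under the highest vehicle array. The TCDD difference was 0.47 (interval 0.20 to 0.75), a fold of 1.39, with an unadjusted p of 0.00222 and a limma adjusted p of 0.12. Without the first TCDD array it was 0.57 and passed, at an adjusted p of 0.0494, and without the arrays numbered 1 of both treated groups the adjusted p was 0.00842. Xdh was called in 6 of 22 alternative settings, over which its adjusted p ran between 0.00494 and 0.353.

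Aldh3a1, an aldehyde dehydrogenase known as an AhR target in liver and other tissues, had values of 6.39, 6.23, 6.06 and 6.18 in TCDD arrays, 6.45, 6.27, 6.25 and 6.56 in Cl-BBQ arrays, and 6.31, 6.26, 6.28 and 6.17 in vehicle arrays. These are dim values, and the groups overlapped. The TCDD difference was -0.04 (interval -0.22 to 0.13).

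**Figure D2:**
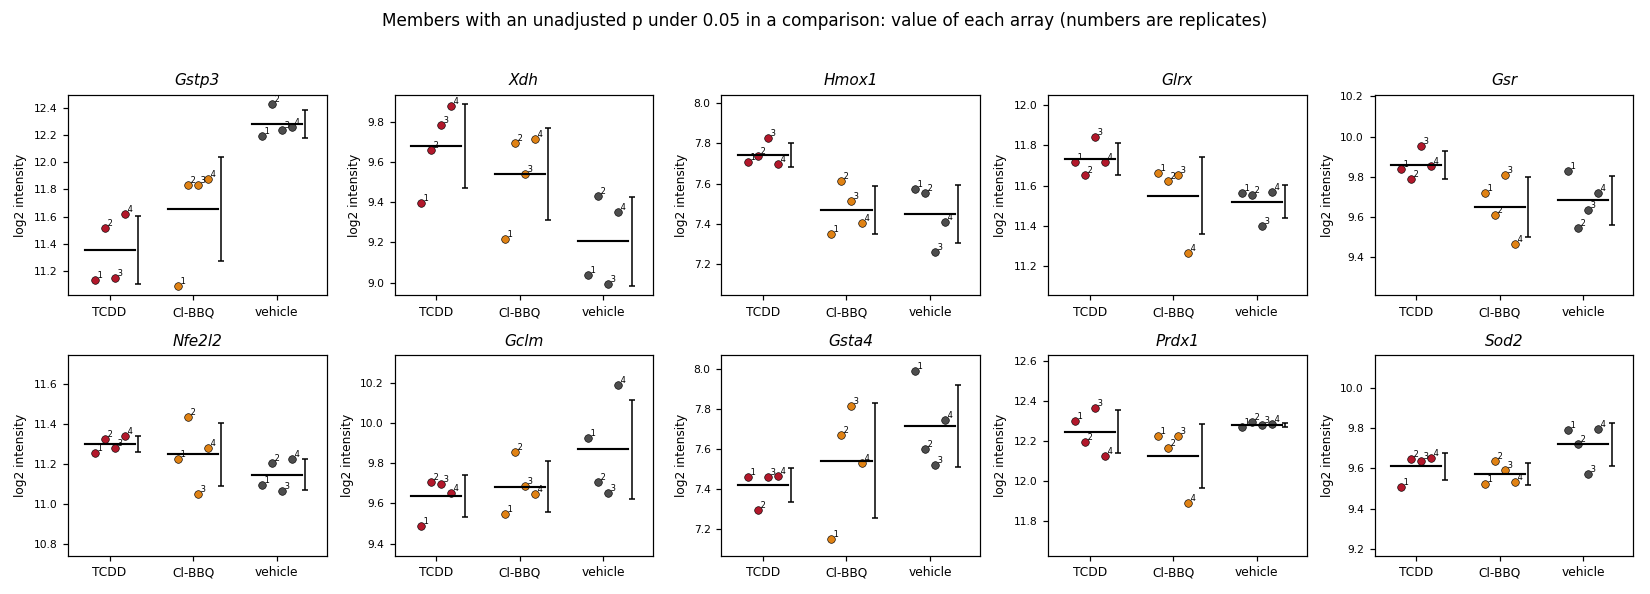
Log2 value on each of the 12 arrays for the 10 listed genes with an unadjusted p under 0.05 in any comparison, grouped as TCDD, Cl-BBQ and vehicle; lines are means and bars are SDs (n = 4). Gstp3 is lower in all 8 treated arrays than in the 4 vehicle arrays, and Hmox1 is higher in the 4 TCDD arrays than in the other 8.

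The AhR target Nqo1, a quinone reductase that is also a textbook NRF2 target, behaved differently from the listed NRF2 targets. It had values of 7.85, 8.27, 8.02 and 8.27 in TCDD arrays, 7.31, 7.67, 6.59 and 7.03 in Cl-BBQ arrays, and 6.25, 6.41, 6.10 and 6.52 in vehicle arrays. The 3 groups did not overlap. Nqo1 rose 3.44-fold in TCDD against vehicle, a difference of 1.78 (interval 1.42 to 2.15; limma adjusted p = 3.6e-05). It was the 1 called gene among 22 other NRF2 targets measured, whose median difference was 0.04.

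Genes of the AhR battery, a list that also holds Nqo1, passed the test in 5 of 9 cases. All were higher with TCDD, against 0.873% of all genes called higher, and the median difference over the 9 was 0.73. Cyp1b1, a cytochrome P450 of the AhR response, rose 11.2-fold. Ahrr, the AhR repressor, rose by 0.89 and Tiparp, a feedback inhibitor of AhR, by 0.82 on the log2 scale. Aldh3a1, which belongs to both lists, was not called.

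Further genes around the listed ones held few calls in TCDD against vehicle. None passed among 11 other regulators of NRF2, 23 other glutathione genes, 20 other thioredoxin and peroxiredoxin genes and 9 genes of NADPH supply. The 23 glutathione genes had a negative difference in 19 cases, with a median of -0.08, against 9558 of all 19938 genes. Of the 23, 1 was lower and 1 higher at an unadjusted limma p under 0.05. Of 11 oxidant-producing enzymes and subunits, 1 was called: Ncf4, a cytosolic subunit of the phagocyte NADPH oxidase. Ncf4 had values of 7.75, 8.01, 7.86 and 8.05 in TCDD arrays and 8.43, 8.53, 8.14 and 8.36 in vehicle arrays, with no overlap. Ncf4 fell 1.36-fold (difference -0.45, limma adjusted p = 0.0332), a call lost in 7 of 22 alternative settings.

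Cybb, a membrane subunit of the same oxidase, was chosen after its values were seen, as were Cyba and Ncf1. It had values of 6.75, 7.68, 6.81 and 7.45 in TCDD arrays, 6.79, 7.46, 7.10 and 7.22 in Cl-BBQ arrays, and 7.58, 8.32, 7.52 and 8.77 in vehicle arrays. Its difference of -0.88 in TCDD against vehicle was not called (limma adjusted p = 0.16). Its membrane partner Cyba differed by 0.27 (unadjusted p = 0.0243, limma adjusted p = 0.444). The cytosolic subunit Ncf1 differed by 0.13, with an interval of -0.05 to 0.32 that includes 0. Neither was called. B cells and phagocytes are known to express these subunits. Beside the B cell markers given above, 1 of 18 myeloid-list genes was called, Cd74, which fell by 0.43 (adjusted p up to 0.125 with single arrays left out). Of the 18, 11 had a positive and 7 a negative difference, with a median of 0.03. The part of these markers in the Ncf4 result was not tested.

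**Figure D3:**
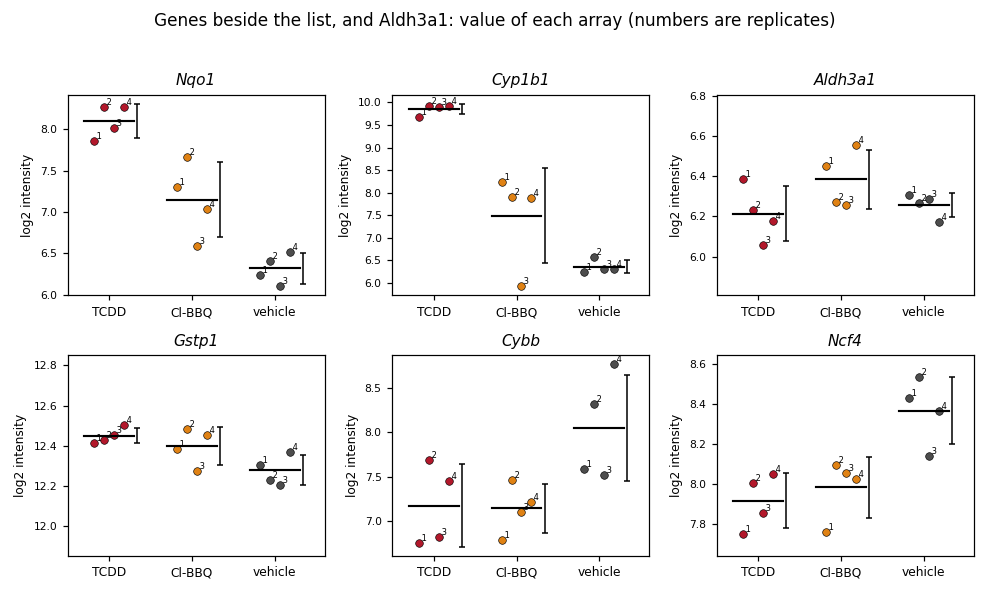
Log2 value on each of the 12 arrays for Nqo1, Cyp1b1, Aldh3a1, Gstp1, Cybb and Ncf4, grouped as TCDD, Cl-BBQ and vehicle; lines are means and bars are SDs (n = 4). Nqo1 and Cyp1b1 are highest in TCDD arrays, the third Cl-BBQ array, at 5.93, is below the vehicle arrays for Cyp1b1, and Aldh3a1 groups overlap.

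The second comparison set T cells of Cl-BBQ hosts against those of vehicle hosts. No listed gene was called, against 0.196% of all genes. Gstp3, the transferase that fell with TCDD, differed by -0.62 (interval -0.94 to -0.31), a 1.54-fold lower level with an unadjusted p of 0.000701 and a limma adjusted p of 0.126. All 4 Cl-BBQ arrays lay below all 4 vehicle arrays, but the first Cl-BBQ array, at 11.09, was far below the other 3. Without that array the difference was -0.43 (limma adjusted p = 0.0818), and without the arrays numbered 1 of both treated groups it was -0.43 with an adjusted p of 0.045.

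An unadjusted p under 0.05 in Cl-BBQ against vehicle was reached by 4 of the 38 genes (10.5%), against 7.91% of all genes. These were Xdh with a positive difference, as in 4.11% of all genes, and Gstp3, Prdx1 and Sod2 with a negative one, as in 3.8%. The Xdh difference was 0.34 (interval 0.06 to 0.61; limma adjusted p = 0.526). Prdx1 differed by -0.16 (interval -0.29 to -0.02) with no overlap, which with Gstp3 makes 2 listed genes lower without overlap, beside 1.58% of all genes. Without the fourth Cl-BBQ array the Prdx1 difference was -0.08. Neither Prdx1 (limma adjusted p = 0.587) nor Sod2, at -0.15 (limma adjusted p = 0.628), passed.

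The NRF2 system itself held no called gene with Cl-BBQ. Nfe2l2 had values of 11.22, 11.43, 11.05 and 11.28 in Cl-BBQ arrays, overlapping vehicle, with a difference of 0.10. Keap1, at 8.79, 9.03, 8.98 and 9.17, differed by 0.02, and Bach1, at 7.76, 8.05, 7.82 and 7.87, by 0.00. Hmox1 differed by 0.02 (interval -0.15 to 0.19), so that a fold as large as the 1.22 seen with TCDD lay outside its interval. The glutathione genes gave small differences as well. Gclc, at 10.16, 10.55, 10.38 and 10.43 in Cl-BBQ arrays, differed by -0.05, and Gclm, at 9.55, 9.85, 9.69 and 9.65, by -0.19 (limma adjusted p = 0.704), or -0.08 without the fourth vehicle array. Slc7a11, at 5.76, 5.53, 5.47 and 5.77, differed by 0.07.

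Other targets also differed little. Txnrd1, at 9.44, 9.41, 9.56 and 9.29 in Cl-BBQ arrays, differed by -0.10, and Srxn1, at 7.45, 7.39, 7.56 and 7.43, by 0.02. Aldh3a1 differed by 0.13 (limma adjusted p = 0.741). The 21 listed genes not named with their arrays ranged from -0.11 for Gsto1 to 0.17 for Gstm5, with a lowest adjusted p of 0.685. The median difference was -0.02 over the listed genes and 0.01 over all genes. In 36 of 38 genes (94.7%) the interval lay within a 1.5-fold change, Gstp3 and Xdh again being the exceptions, against 98.4% of all genes.

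Nqo1 differed by 0.83 in Cl-BBQ against vehicle (interval 0.46 to 1.19), a fold of 1.78, with no overlap, and did not pass (limma adjusted p = 0.0735). Without the third Cl-BBQ array it was 1.01 and passed at an adjusted p of 0.00721. Cyp1b1 had values of 8.24, 7.90, 5.93 and 7.89 in Cl-BBQ arrays, so the third array lay below every vehicle array. The Cyp1b1 difference was 1.13 (limma adjusted p = 0.298), and 1.65 at an adjusted p of 3.5e-06 without that array. Among the listed genes this array was the lowest of its group in 5 of 38 (13.2%), against 20% of all genes. None of the other lists of NRF2, glutathione, thioredoxin, NADPH or oxidant genes held a called gene with Cl-BBQ. Of the 9 measured AhR battery genes none was called either.

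The third comparison set the 2 treatments side by side at the doses and schedules given, which differed. No listed gene was called in TCDD against Cl-BBQ, against 0.015% of all genes, or 3 genes. The 3 listed genes with an unadjusted p under 0.05 (7.89%, against 2.99% of all genes) all had higher means with TCDD, as did 1.62% of all genes at that p. They were the haem oxygenase Hmox1, the reductase Gsr and the glutaredoxin Glrx. Hmox1 differed by 0.27 (interval 0.10 to 0.44), with an unadjusted p of 0.00404 and no overlap. Groups that do not overlap, with TCDD higher, were found in 1.24% of all genes. Gsr differed by 0.21 (unadjusted p = 0.0228) and Glrx by 0.18 (unadjusted p = 0.0315), or 0.09 without the fourth Cl-BBQ array. The limma adjusted p of these 3 genes, as of every listed gene, rounded to 1.00.

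Gstp3 was lower with TCDD than with Cl-BBQ by 0.30 on average, with an interval of -0.62 to 0.01 that includes 0. Without the first Cl-BBQ array it was -0.49 (limma adjusted p = 0.198). For 37 of the 38 genes (97.4%) the interval of TCDD against Cl-BBQ lay within 1.5-fold, with Gstp3 outside, against 99.2% of all genes. The median size of the difference was 0.0633 for the listed genes and 0.047 for all genes. In Nqo1 TCDD stood above Cl-BBQ by 0.95 (interval 0.59 to 1.32; limma adjusted p = 0.21). Same-numbered TCDD and Cl-BBQ arrays had positive correlations of their deviations in all 4 pairs, from 0.113 to 0.606. Differently numbered arrays ran from -0.588 to 0.419, so a shared number was not always the closest match. With the number as a block the Nqo1 difference passed, at a limma adjusted p of 0.0176. The block gave 5 called genes in place of 3, and 53 when fitted on the 8 treated arrays, with no listed gene among them. Both comparisons with vehicle share the same 4 vehicle arrays, so their values for a gene are not independent.

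The listed genes varied most among the Cl-BBQ arrays. The median SD over the 38 genes was 0.081 in TCDD, 0.147 in Cl-BBQ and 0.104 in vehicle, while over all genes it was 0.0935, 0.110 and 0.100. The largest of the 3 SDs was in the TCDD group for 1 gene, in the Cl-BBQ group for 21 and in the vehicle group for 16. The first Cl-BBQ array was the lowest of all 12 in 14 of 38 genes (36.8%), against 17.4% of all genes, and the lowest of its group in 24 (63.2%), against 35.2%. It was low in Gstp3 (11.09), Gsta4 (7.15) and Keap1 (8.79). The first TCDD array and the third vehicle array were each the lowest of their group in 19 of 38 genes (50%), against 32.3% and 30.1% of all genes. Over the 12 arrays the widest range belonged to Gstp3, at 1.34 log2 units, then Xdh at 0.88 and Gsta4 at 0.83.

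**Figure D4:**
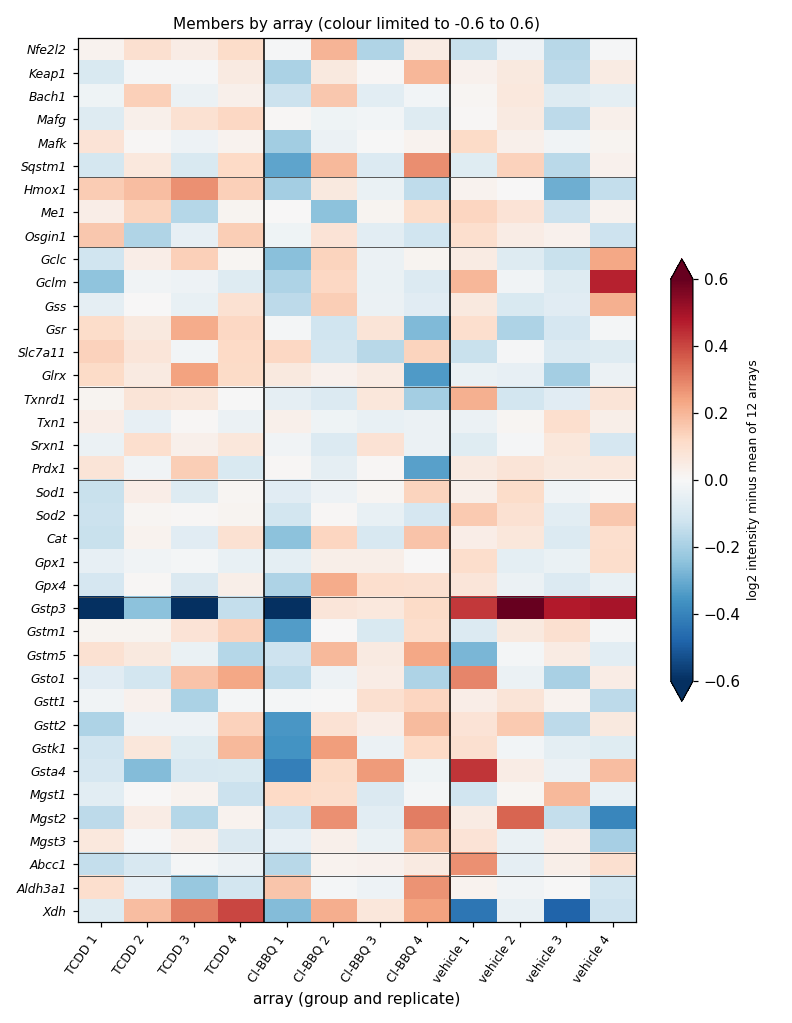
Log2 value of each of the 38 measured genes (rows) on each of the 12 arrays (columns; TCDD, Cl-BBQ, vehicle), minus the mean of that gene over the arrays, with colour limited to -0.6 and 0.6. Gstp3 is higher in the 4 vehicle arrays than in all 8 treated arrays, and the first Cl-BBQ array is the lowest of its group in 24 genes.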

How the data were processed

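The deposited table held log2 intensities processed by the authors with RMA, per the submitters' processing notes; its version and library files were not stated, and the log2 scale was read from the values (2.49 to 14.2). The label protocol names a labelling kit made for 3′ arrays, whereas the probe table is that of a whole-transcript array, which could not be settled. Of 35556 probe sets, 21789 carried 1 symbol, 1621 several and 12146 none in the platform's probe table; 21698 probe sets had an Entrez identifier found in RefSeq (GRCm38.p6) and 0 symbols changed. For the 999 genes with several probe sets the one with the highest mean was kept, leaving 19938 genes, with no filter on dim genes. For arrays, their number limits the precision.

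All 12 arrays entered 1 limma fit (version 3.58.1 under R 4.3.3) with a coefficient for each group and 9 residual degrees of freedom, with empirical Bayes moderation with an intensity trend, two-sided tests and Benjamini-Hochberg adjustment over all genes, checked on simulated data. Intervals are at the 95% level, and fold changes are 2 raised to the log2 difference. Levels are compared between arrays, never between probe sets. Figures were drawn with matplotlib 3.10.9 (Python 3.11.15).

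Values on every array are given for listed genes called in a comparison, for those with an unadjusted p under 0.05 and for 12 genes set by name; others are given by range. From further lists, called genes (at most 4 each) and Nqo1 are named; Gstp1, Cybb, Cyba, Ncf1, Cd79b, Pax5 and Blk were chosen after their values were seen. Members, lists and tests were chosen with earlier results of these data known. Replicate numbers were checked as pairs by correlating deviations from group means. Same-numbered TCDD and Cl-BBQ arrays correlated at 0.606, 0.113, 0.157 and 0.365, all above 0.1. Differently numbered ones ran from -0.588 to 0.419. The fourth TCDD array correlated more with the second Cl-BBQ array (0.419) than with the fourth (0.365). This pairing comes from the data and not from the labels. Alternatives were centring, quantile normalization, other probe set rules, a dim filter, no trend, array weights, fits on 8 arrays, a replicate block and leaving out each array. Some genes of the lists were not analysed here.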

Additional observations from a re-analysis of the deposited data

Results flagged for a closer look

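In groups of 4 arrays, one array was set against the other 3 by Dixon's test at the 95% level, over 147 groups in 49 genes, of which chance flags about 5%. Every flagged group is named below. Whether the flags outnumber those given by chance was not tested, so no single flag marks an array as faulty. The first Cl-BBQ array was low in 2 listed genes, Gstp3 at 11.09 (nearest other array 11.83) and Abcc1 at 8.32 (nearest 8.51). The fourth Cl-BBQ array was low in Glrx, at 11.26 (nearest 11.62). In the TCDD group the first array was low in Sod2, at 9.51 (nearest 9.64), and the second in Gsta4, at 7.30 (nearest 7.46). In the vehicle group the third array was low in Keap1, at 8.82 (nearest 9.003), and in Glrx, at 11.40 (nearest 11.55).

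Among genes outside the list, the third Cl-BBQ array was low in Cyp1b1, at 5.93 (nearest 7.89), and high in the B cell gene Cd22, at 7.77 (nearest 7.38). The first TCDD array was low in Cyp1b1, at 9.67 (nearest 9.91).

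The TCDD and Cl-BBQ effects differed by a test of the difference itself in 2 AhR genes. Cyp1b1 was higher with TCDD than with Cl-BBQ by 2.37 on the log2 scale and Tiparp by 0.65, each with a limma adjusted p of 0.0356, in 4 of 4 TCDD arrays against all Cl-BBQ arrays. Doses and schedules differed between the compounds. Of 23 alternative settings, 12 ended the Cyp1b1 call and 13 the Tiparp call, with adjusted p up to 0.42 for both. Without the third Cl-BBQ array the Tiparp difference was 0.55, at an adjusted p of 0.062.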

How the results depend on the processing

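Across 23 settings no called difference changed sign, and of 1567 recomputed uncalled differences 43 did. For TCDD against vehicle the count of called listed genes was 1 and became 2, Xdh joining Gstp3, with quantile normalization (Xdh adjusted p 0.0363), array weights (0.0219), the replicate block (0.00494) or without the arrays numbered 1 of both treated groups, an alternative chosen after seeing the data; leaving out 1 array gave 1 to 2, with 2 without the first TCDD or the first Cl-BBQ array. The called genes were 247, and 160 with centring (78.1% higher, against 70.4%), 391 with array weights and 397 with the replicate block, and 150 to 321 leaving out 1 array, the lowest without the third TCDD array. For Cl-BBQ against vehicle the count was 0, and Gstp3 made it 1 with the replicate block (adjusted p 0.00701) and without the arrays numbered 1, and leaving out 1 array gave 0 to 0. The 39 called genes became 8 with centring, 71 with quantile normalization, 18 with no intensity trend, 11 with the 8 arrays compared, 111 with the block and 86 without the arrays numbered 1, and 3 to 61 leaving out 1 array, the lowest without the second Cl-BBQ array. For TCDD against Cl-BBQ the listed count was 0 in every setting, and the 3 called genes became 0 with quantile normalization, no trend or the 8 arrays, 9 with array weights, 5 with the block or without the arrays numbered 1, 53 with the block on 8 arrays (chosen after seeing the data), and 0 to 7 leaving out 1 array. Against vehicle, same-numbered arrays did not all pair (correlations -0.0701 to 0.182 for TCDD, -0.134 to 0.0871 for Cl-BBQ), so blocked values there share only a number. The cause of these changes was not tested. The median difference of the listed genes in TCDD against vehicle was -0.01, and 0.02 with quantile normalization. Of the 38 genes, 31 passed the dim filter; differences of the 7 dim genes are the least certain.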
